A study of Mus musculus with 24 samples.

Results

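Heat shock proteins and their cochaperones were followed in macrophages sorted from mouse colon tumors. The set holds 10 of the 55487 genes counted. Its members were matched by gene symbol to the mouse Ensembl ID and all were present. They are the inducible HSP70 genes Hspa1a and Hspa1b, the constitutive HSP70 gene Hspa8, the HSP90 genes Hsp90aa1 and Hsp90ab1, the J-domain cochaperone Dnajb1, the HSP110 gene Hsph1, the mitochondrial chaperonin pair Hspd1 and Hspe1, and the heat shock transcription factor Hsf1. HSP70 proteins bind unfolded stretches of a client protein in an ATP cycle that J-domain proteins such as DNAJB1 start and that HSP110 proteins reset by exchanging the nucleotide. Clients can then pass to HSP90, which matures kinases, receptors and other signalling proteins, while HSPD1 and its lid HSPE1 fold proteins inside mitochondria. HSF1 is held inactive by chaperones in unstressed cells and drives the inducible members when proteins unfold. In macrophages removed from tissue, inducible HSP70 transcripts are also known to respond to digestion and sorting.

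The macrophages came from MC38 tumors, a mouse colon carcinoma line, grown orthotopically in C57BL/6J mice. The tumor cells were either APC-WT or APC-KO, and the macrophages were host cells, so the genotype is that of the tumor and not of the cells sequenced. All tumors were digested with Liberase DL and Liberase TL, red cells were lysed, and cells were sorted as CD45+ CD11b+ F4/80+. Each genotype had 2 tumors with 6 libraries per tumor, 24 libraries in all. The labels call the 6 libraries replicates of one tumor sample, so genotypes were compared over 2 tumors against 2 and p-values between single tumors measure the spread between libraries, which may be technical. Age, sex and the APC-KO clone are not given in the sources used here, and fewer cells of a type cannot be told apart from less RNA per cell in these bulk libraries.

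Library totals lay between 74972634 and 93568353 counts for APC-WT tumor 1 and between 28018638 and 46837543 for APC-WT tumor 2. They were lower for APC-KO tumor 1, between 8895722 and 19328572, and for APC-KO tumor 2, between 13464061 and 17196820. The genotypes also differed in what the counts held: loci resembling satellite repeats took 1.32% and 7.08% of counts in the APC-WT tumors and 37.9% and 38.5% in the APC-KO tumors. Receptor genes of smell and pheromone sensing, silent in macrophages, were used to set an expected background per kilobase of exon, and 3938 genes with a mean of at least 10 CPM (counts scaled to a common library size) and at least 10 times that background were taken as expressed. Their share of all counts was 81.6%, 73.6%, 33.1% and 31.7% in the same order of tumors. Without correction, the change in APC-KO was larger for shorter transcripts, with a Spearman correlation of -0.57 with transcript length across the expressed genes, which are not independent replicates. Genotype changes were therefore fitted with an offset for transcript length, and the change without the offset is given beside each member's, except for Hsf1, which had no fit with the offset. For most other genes and lists named it is given where it changes a call or a count. Of the sort markers, Itgam (CD11b) and Adgre1 (F4/80) had log2 changes of -2.05 ± 0.151 and -1.72 ± 0.151 (SE) in APC-KO, and Ptprc (CD45) stood at 1144, 1132, 388 and 404 scaled CPM in the 4 tumors. The macrophage gene Csf1r had a log2 change of -1.76. Without the offset Itgam, Adgre1 and Csf1r had -2.57, -2.09 and -2.29. The Apc gene was at 2.52 times the expected background, below the expression limit. As the macrophages are host cells, its level would give no check of the labels in any case.

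The promoters are shown first because HSF1 binds sequences of this kind; what they do in these cells was not tested. Of the members, 6 have a promoter in the RefSeq table (GRCm38.p6, 250 bases before to 50 after the start). Hspa1a and Hspa1b lie near each other on chromosome 17, both on the minus strand, and 247 of their 250 upstream bases were identical. The stretches below hold the match to the heat shock element, the DNA pattern HSF1 reads as inverted GAA units, in capitals (GAANNTTC), at chr17:34972227-34972286 for Hspa1a and chr17:34959309-34959368 for Hspa1b:
Hspa1a: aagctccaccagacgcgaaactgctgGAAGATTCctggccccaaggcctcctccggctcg
Hspa1b: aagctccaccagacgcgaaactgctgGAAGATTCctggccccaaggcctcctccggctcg
These 60 bases did not differ between the genes. Hspd1 and Hspe1 are transcribed away from each other from a shared promoter, and the match between them has 4 alternating units (capitals), at chr1:55088053-55088082 on the plus strand, within an annotated untranslated exon of Hspd1 on the opposite strand:
Hspe1: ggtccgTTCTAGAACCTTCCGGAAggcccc
A run of 3 alternating units, GAANNTTCNNGAA or TTCNNGAANNTTC, each the reverse complement of the other, was found in 3 of the 6 member genes with a promoter (Hspd1, Hspe1 and Hsph1) and in 0.603% of 32851 promoters. In Hspd1 and Hspe1 it was the same stretch of bases read from opposite strands, and in Hsph1 it lay downstream of the start. The shorter pair of units, GAANNTTC or TTCNNGAA, each its own reverse complement and contained in the longer run, was found in 5 of the 6 and in 15.1% of all promoters. The counts are of genes, and Hspd1 with Hspe1, and Hspa1a with Hspa1b, do not give independent matches. These are matches of letters in a window and not measured binding.

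Levels of different members were compared as scaled CPM per kilobase of the principal isoform, where scaled CPM means CPM computed from the TMM-scaled counts of expressed genes alone. Hspa8 stood highest in every tumor, at 1226 ± 30.9 (SD, n = 6 libraries) per kilobase in APC-WT tumor 1, 1092 ± 31.9 in APC-WT tumor 2, 637 ± 27.1 in APC-KO tumor 1 and 514 ± 17.2 in APC-KO tumor 2. Hsp90ab1 came next in 3 tumors, at 257, 349 and 327 per kilobase in APC-WT tumor 1 and the APC-KO tumors. In APC-WT tumor 2 the next places went to Hspa1b at 785 ± 21.8 and Hspa1a at 776 ± 23.1, whose libraries overlapped. At the low end, Hsph1 stood at 25.8, 34.8, 36.3 and 22.1 per kilobase. Hspe1 moved up the order, from 30.0 and 24.4 per kilobase in the APC-WT tumors, among the 2 lowest members, to 91.7 and 87.8 in the APC-KO tumors, 6th of 10. These levels are per kilobase and carry no correction for the length trend between genotypes. Neighbours whose library ranges overlapped were Hspa1a and Hspa1b, Hspd1 and Dnajb1, and Hsf1 and Hspe1 in APC-WT tumor 1, and Hspa1b and Hspa1a, Hsp90aa1 and Hspd1, and Hsf1 and Hsph1 in APC-WT tumor 2. In APC-KO tumor 1 they were Hspa1a and Hspa1b, Hsf1 and Dnajb1, and Dnajb1 and Hspd1, and in APC-KO tumor 2 Hspa1b and Hspe1, Dnajb1 and Hspd1, and Hspd1 and Hsf1.

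**Figure D1:**
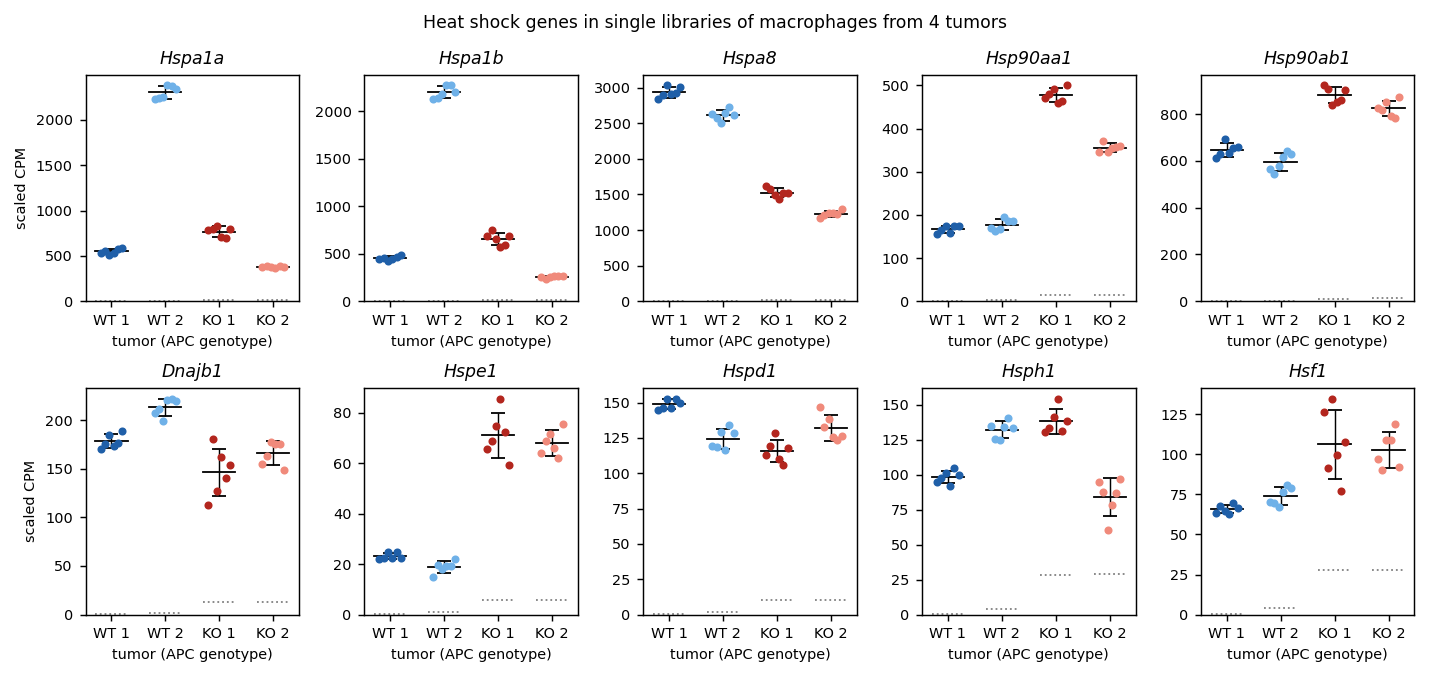
Level of each member in scaled CPM (linear axis from 0) in the 6 libraries of each tumor; bars are the mean ± SD and dotted lines the expected background. Hspa1a and Hspa1b stand apart in APC-WT tumor 2, while Hspa8 is lower and Hsp90aa1, Hsp90ab1 and Hspe1 are higher in all 12 APC-KO libraries than in any APC-WT library. Those 12 libraries come from 2 tumors, and how many of all expressed genes separate in this way was not counted.

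Between genotypes, Hsp90aa1, Hsp90ab1 and Hspe1 rose and Hspa8 fell in macrophages of APC-KO tumors, while the inducible HSP70 genes did not pass the test. Of the 9 members expressed above the limit, 4 were called at an adjusted p under 0.05, 3 higher and 1 lower, against 49.3% of all 3938 expressed genes called (24.9% higher and 24.4% lower). Without the length offset the same counts were 3 higher and 1 lower, against 63.4% of expressed genes (32.7% higher and 30.7% lower). The members' share called was thus near the background. Their median log2 change was 0.01, and that of all expressed genes was -0.03. Hsf1, at 7.62 times the expected background, lay just outside the limit of 10, and Hsph1, at 10.5 times, just inside. Where the libraries of the genotypes are said not to overlap, the share of all expressed genes doing so was not counted.

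Hsp90aa1 (ENSMUSG00000021270, chr12:110690605-110702728, minus strand, GRCm38) encodes the stress-inducible cytosolic HSP90. Its libraries ran from 155 to 175 scaled CPM around a median of 170 in APC-WT tumor 1 and from 162 to 195 around 177 in APC-WT tumor 2. In APC-KO tumor 1 they ran from 459 to 500 around 475 and in APC-KO tumor 2 from 345 to 372 around 357. Every APC-KO library was above every APC-WT library. The log2 change was 1.67 ± 0.186 (SE, adjusted p = 0.00432), and 1.30 without the length offset (adjusted p = 0.00439). Against single tumors, APC-KO tumor 1 had log2 changes of 1.88 and 1.80 from APC-WT tumors 1 and 2, and APC-KO tumor 2 had 1.47 and 1.38. These pairs share tumors. Hsp90aa1 shares 51.5% of its 50-base stretches with the pseudogene Gm12346 and 36.8% with Gm5844. With the copies summed the change was 1.75.

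Hsp90ab1 (ENSMUSG00000023944, chr17:45567775-45573271, minus strand), the constitutive partner, had a smaller estimated change. It ran from 611 to 696 scaled CPM (median 645) in APC-WT tumor 1 and from 544 to 642 (median 597) in APC-WT tumor 2. In the APC-KO tumors it ran from 838 to 924 (median 881) and from 786 to 872 (median 822). The genotypes did not overlap. The log2 change was 0.65 ± 0.144 (adjusted p = 0.0216), and 0.48 without the offset (adjusted p = 0.0414). The call was lost without APC-WT tumor 2 (adjusted p = 0.0643), without APC-KO tumor 1 (0.116) and without APC-KO tumor 2 (0.103), where 1 tumor stood against 2. Hsp90aa1 counts per Hsp90ab1 count were 0.258 ± 0.00725 and 0.298 ± 0.00981 (SD, n = 6 libraries) in the APC-WT tumors and 0.543 ± 0.0257 and 0.432 ± 0.0234 in the APC-KO tumors, so the inducible form made up more of the cytosolic HSP90 transcripts in the APC-KO libraries.

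Hspa8 (ENSMUSG00000015656, chr9:40800984-40810087, plus strand), the constitutive HSP70 of the cytosol, was the member of highest level and the one that fell. APC-WT tumor 1 ran from 2837 to 3033 scaled CPM (median 2918) and APC-WT tumor 2 from 2507 to 2736 (median 2620). APC-KO tumor 1 ran from 1431 to 1615 (median 1521) and APC-KO tumor 2 from 1170 to 1293 (median 1235). All APC-WT libraries were above all APC-KO libraries. The log2 change was -0.64 ± 0.182 (adjusted p = 0.0413), and -0.99 without the offset (adjusted p = 0.00986). With the counts of its pseudogenes Gm15459, Gm8355, Gm6210 and Gm7232 added, which share from 14.02% to 45.3% of its 50-base stretches, the change was -0.58 and the call was lost (adjusted p = 0.0550). It was also lost when any 1 tumor was left out: adjusted p was 0.131 without APC-WT tumor 1, 0.0575 without APC-WT tumor 2, 0.0832 without APC-KO tumor 1 and 0.156 without APC-KO tumor 2.

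Hspe1 (ENSMUSG00000073676, chr1:55088132-55091307, plus strand) encodes the lid of the mitochondrial chaperonin and Hspd1 (ENSMUSG00000025980, chr1:55077835-55088243, minus strand) its barrel. Hspe1 ran from 22.04 to 24.9 scaled CPM (median 22.5) and from 14.9 to 22.1 (median 19.3) in the APC-WT tumors, and from 59.1 to 85.5 (median 70.6) and from 62.0 to 75.4 (median 67.4) in the APC-KO tumors. No APC-KO library fell into the APC-WT range. The values rest on 1287 to 1737 counts per library in APC-WT tumor 1 and on 226 to 489 in APC-KO tumor 1, the fewest of any member. Hspe1 has the shortest transcript of the set, and its change depended on the length offset: it was 0.60 ± 0.153 with it (adjusted p = 0.0313) and 1.74 without it (adjusted p = 0.00124). With the length of the principal isoform in the offset it was 0.38 and the call was lost (adjusted p = 0.0894). It was also lost without APC-WT tumor 2 (0.0549), APC-KO tumor 1 (0.131) and APC-KO tumor 2 (0.147).

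Hspd1 did not pass the test. It ran from 145 to 153 scaled CPM in APC-WT tumor 1, from 117 to 134 in APC-WT tumor 2, and across 106 to 128 and 123 to 147 in APC-KO tumors 1 and 2, with overlap between the genotypes. Its log2 change was -0.00 ± 0.140 (adjusted p = 0.982), and -0.13 without the offset (adjusted p = 0.442). Hspe1 counts per Hspd1 count were 0.156 ± 0.00586 and 0.152 ± 0.0182 in the APC-WT tumors and 0.617 ± 0.0978 and 0.516 ± 0.0517 in the APC-KO tumors (SD, n = 6 libraries), a ratio that carries no correction for length. The annotated transcripts of both genes overlap by 112 bases on opposite strands, and whether the counting used strand is not given in the sources used here. Hspd1 also shares 42.8% of its 50-base stretches with the pseudogene Hspd1-ps3.

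**Figure D2:**
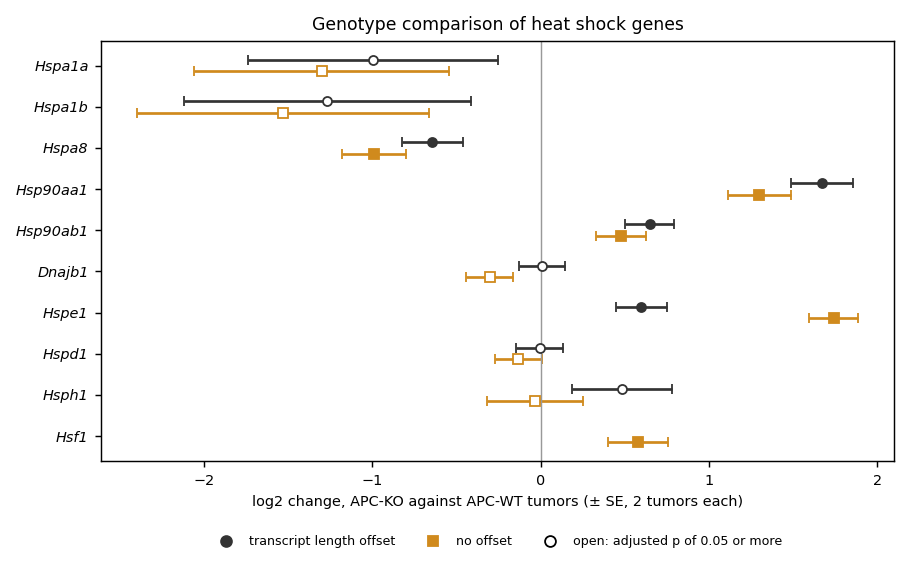
Log2 change of each member between APC-KO and APC-WT tumors (2 tumors each) with its standard error, with the transcript length offset (circles) and without it (squares); filled symbols passed an adjusted p of 0.05. Hsf1 lies below the expression limit and is drawn from the fit over all genes; Hspe1 shows the widest gap between the fits, and the widest errors belong to Hspa1a and Hspa1b.

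Hspa1a (ENSMUSG00000091971, chr17:34969190-34972156) and Hspa1b (ENSMUSG00000090877, chr17:34956436-34959238), single-exon genes on the minus strand that encode nearly the same inducible HSP70, differed more between tumors of a genotype than any other member. Hspa1a ran from 511 to 589 scaled CPM (median 544) in APC-WT tumor 1 and from 2231 to 2381 (median 2294) in APC-WT tumor 2. In APC-KO tumor 1 its range was 693 to 829 (median 792), and in APC-KO tumor 2 it was 371 to 391 (median 378). The 4 tumors did not overlap with each other, and both APC-KO tumors lay below APC-WT tumor 2 while APC-KO tumor 1 lay above APC-WT tumor 1.

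Hspa1b followed the same order, from 428 to 483 (median 452), from 2131 to 2272 (median 2190), from 572 to 745 (median 669) and from 231 to 267 (median 258) in the same tumors. The log2 change between genotypes was -0.996 ± 0.744 for Hspa1a (adjusted p = 0.312) and -1.27 ± 0.854 for Hspa1b (adjusted p = 0.267). Without the offset it was -1.30 and -1.53. APC-WT tumor 2 set the sign: without it Hspa1a changed by 0.37 (adjusted p = 0.498) and Hspa1b by 0.27 (0.699), and without APC-WT tumor 1 both passed, at -1.68 (0.0267) and -1.99 (0.0316). Hspa1a shares 58.8% of its 50-base stretches with Hspa1b, so reads could be split between them. Summed, they changed by -1.10 (adjusted p = 0.295). Gm20481, a gene annotated across Hspa1a on the opposite strand, had at most 37 counts in any tumor.

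Within genotypes, the inducible HSP70 genes gave the largest differences of the set. From APC-WT tumor 1 to APC-WT tumor 2, Hspa1b was higher by a log2 change of 2.26 ± 0.0519 (adjusted p = 5.69e-21) and Hspa1a by 2.05 ± 0.0424 (8.14e-22), the 11th and 20th highest changes among 3938 expressed genes. Hsph1 rose by 0.50 ± 0.0754 (6.16e-06) and Dnajb1 by 0.25 ± 0.0750 (0.00870). Hspa8 changed by -0.18 (adjusted p = 1.35e-05), Hsp90ab1 by -0.12 (0.0152), Hspe1 by -0.33 (0.00158) and Hspd1 by -0.26 (0.000117), all lower, and Hsp90aa1 changed by 0.09 without passing (adjusted p = 0.110). In all, 8 of 9 members were called, 4 in each direction, against 47.6% of expressed genes (19.6% higher and 28.1% lower). The Hsp90ab1 call was lost without replicate 2 (0.0640) or replicate 3 (0.0861).

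From APC-KO tumor 1 to APC-KO tumor 2 the inducible genes went the other way. Hspa1b had a log2 change of -1.34 ± 0.0510 (adjusted p = 1.55e-16) and Hspa1a of -1.002 ± 0.0415 (8.34e-16). Hsph1 changed by -0.70 ± 0.0788 (1.11e-07), Hsp90aa1 by -0.41 ± 0.0433 (3.83e-08) and Hspa8 by -0.29 ± 0.0284 (8.06e-09). Hspd1 rose by 0.20 (adjusted p = 0.00465). Hsp90ab1 changed by -0.09, Dnajb1 by 0.20 (adjusted p = 0.0532) and Hspe1 by 0.01 without passing. Thus 6 of 9 members were called, 1 higher and 5 lower, against 34.9% of expressed genes (19.2% higher and 15.7% lower). Dnajb1 passed without replicate 2 (0.0120) and without replicate 6 (0.0437).

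**Figure D3:**
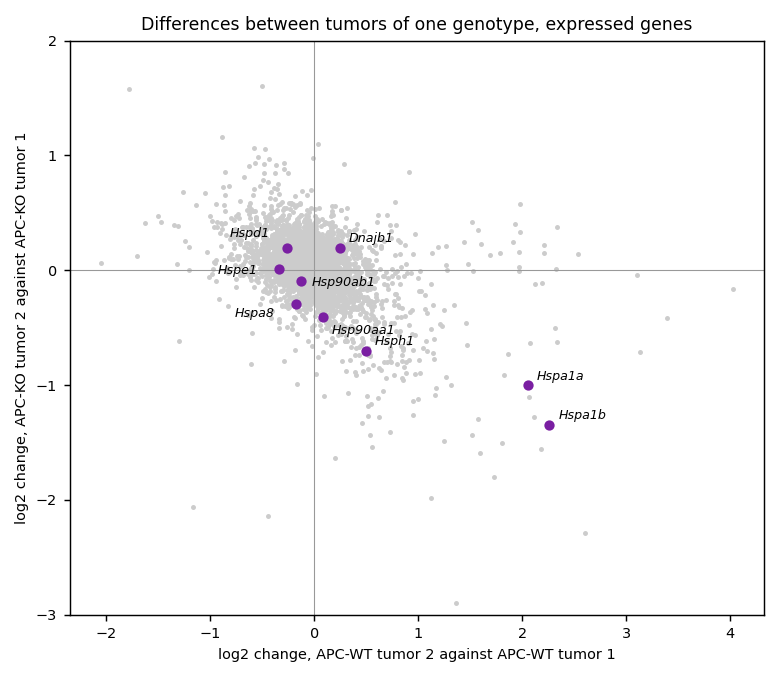
Log2 change of expressed genes (grey) and members (purple) from APC-WT tumor 1 to 2 (horizontal axis) and from APC-KO tumor 1 to 2 (vertical axis), with 6 libraries per tumor; 2 genes lie outside the plotted range. Hspa1a and Hspa1b lie at the lower right, high in APC-WT tumor 2 and low in APC-KO tumor 2, and the other members lie nearer the centre.

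Hspa1a and Hspa1b counts together per Hspa8 count were 0.343 ± 0.0181 in APC-WT tumor 1, 1.72 ± 0.0419 in APC-WT tumor 2, 0.934 ± 0.0602 in APC-KO tumor 1 and 0.517 ± 0.0176 in APC-KO tumor 2 (SD, n = 6 libraries). The inducible genes thus outnumbered the constitutive gene only in APC-WT tumor 2 among the 4 tumors. Markers of other cells also differed between the tumors. The summed level of 6 neutrophil markers followed the order of Hspa1a over the 4 tumors. Its libraries ran from 284 to 304, 496 to 570, 408 to 464 and 208 to 246 scaled CPM. None of the 3 that passed the expression limit kept this order by itself. S100a9 averaged 18.4, 79.6, 187 and 71.1 scaled CPM, and S100a8 was likewise highest in APC-KO tumor 1 and lowest in APC-WT tumor 1. Csf3r averaged 264, 373, 115 and 88.2. All 3 rose from APC-WT tumor 1 to 2, S100a8 and S100a9 by log2 changes of 2.06 and 2.11. All 3 fell from APC-KO tumor 1 to 2. The sum of 6 epithelial markers was 162 to 177, 527 to 563, 212 to 265 and 267 to 305, and that of 5 fibroblast markers was 1524 to 1675, 853 to 973, 294 to 391 and 510 to 559. Expected background for the fibroblast sum was 3.44, 24.6, 174 and 176 scaled CPM in the 4 tumors. In APC-KO tumors 1 and 2 it was 53.8 and 54.7 for the epithelial sum and 36.6 and 37.2 for the neutrophil sum. The sum of 12 macrophage markers averaged 64749, 44509.6, 51082 and 68503. Singly, 5 of the 12 were lower in APC-KO and none higher, with a median log2 change of -0.53 (4 and none without the offset). Of all expressed genes, 24.4% were lower and 24.9% higher with the offset. No marker was at 0 in all 24 libraries, no marker of T and NK, B, dendritic or erythroid cells passed the expression limit, and the part of these cells in the levels of Hspa1a and Hspa1b was not tested.

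Dnajb1 (ENSMUSG00000005483, chr8:83608193-83612653, plus strand), whose J-domain stimulates the HSP70 ATPase, did not pass between genotypes. Its libraries ran from 170 to 189 scaled CPM, from 199 to 222, from 113 to 181 and from 149 to 178 in the 4 tumors, with overlap. The log2 change was 0.01 ± 0.139 (adjusted p = 0.962), and -0.30 without the offset (adjusted p = 0.119), so its sign depended on the offset. Hsph1 (ENSMUSG00000029657, chr5:149614287-149636376, minus strand), the exchange factor that resets HSP70, ran from 92.1 to 105, from 125 to 141, from 130 to 154 and from 60.2 to 96.6. APC-WT tumor 2 and APC-KO tumor 1 were high and the other tumors low. Its change was 0.48 ± 0.296 (adjusted p = 0.230), and -0.03 without the offset (adjusted p = 0.927). Its expected background was 28.3 and 28.7 scaled CPM in the APC-KO tumors, a larger part of its level there than the 0.560 and 4.00 in the APC-WT tumors.

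Hsf1 (ENSMUSG00000022556, chr15:76477422-76501913, plus strand), the transcription factor of the response, ran from 62.7 to 69.5 scaled CPM (median 65.7) and from 67.4 to 80.9 (median 73.2) in the APC-WT tumors. In the APC-KO tumors it ran from 77.4 to 135 (median 103) and from 90.1 to 119 (median 103), and the genotypes overlapped. In the fit over all 53705 genes with library sizes from expressed genes, its log2 change was 0.58 ± 0.178 (adjusted p = 0.0181), where 61.9% of genes were called. That fit had no length offset, and 31775 of its 33252 calls were higher in APC-KO. The median log2 change was 3.57 over all its genes and 0.00415 over the expressed genes, so the value of Hsf1 lay between these medians. The expected background was 0.547, 3.91, 27.6 and 28.1 scaled CPM in the 4 tumors, and its part in this change was not tested.

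When each APC-KO tumor was set against each APC-WT tumor, 4 members were called in the same direction in all 4 pairs, against 60.4% of expressed genes (28.7% higher and 31.6% lower). They were Hsp90aa1, Hsp90ab1 and Hspe1, higher, and Hspa8, lower. For Hspe1 the pairs gave log2 changes of 0.42 and 0.75 for APC-KO tumor 1 and 0.43 and 0.76 for APC-KO tumor 2, from APC-WT tumors 1 and 2. For Hspa8 they gave -0.61, -0.43, -0.90 and -0.73 in the same order, and for Hsp90ab1 0.61, 0.73, 0.52 and 0.64. The pairs share tumors and are not independent. Hspa1a had 0.77, -1.28, -0.23 and -2.28, with a different sign in the first pair.

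Genes that work with the members were described by list, each beside all expressed genes, of which 980 were higher and 960 lower in APC-KO. Of 15 expressed cochaperones of HSP90 and HSP70, 8 were higher and 1 lower, with a median log2 change of 0.36 (9 and 1 without the offset). Cdc37, which brings kinases to HSP90, changed by 1.22 ± 0.13 (adjusted p = 0.00405). Unc45a, a chaperone of myosins, changed by 0.98, Stub1, a ubiquitin ligase that acts on chaperone clients, by 0.77 and Pih1d1, an adaptor of HSP90 to large assemblies, by 0.76. Unc45a did not pass without the offset (adjusted p = 0.0513). Stip1, the adaptor that joins HSP70 to HSP90, was the one that fell, with a log2 change of -0.45 (adjusted p = 0.0451); it was named after its value was seen.

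The cytosolic chaperonin TRiC and its partner prefoldin, which fold actin and tubulin, had 13 expressed genes, with 7 higher and 1 lower and a median of 0.47 (8 and 1 without the offset). The prefoldin subunits Pfdn2 and Pfdn5 changed by 1.01 ± 0.11 and 0.93 ± 0.128, the TRiC subunit Cct7 by 0.85 ± 0.118, and the prefoldin subunit Vbp1 by -1.15 (adjusted p = 0.00361). Of 6 expressed genes of mitochondrial protein quality control, 2 were higher and none lower, against 3 and 2 without the offset. Those higher were Grpel1, the exchange factor of mitochondrial HSP70, by 1.40 ± 0.128 (adjusted p = 0.00342) and the protease Lonp1 by 0.92 ± 0.101 (0.00432). Clpp had 0.37 (adjusted p = 0.0570), and 1.48 without the offset (0.00115).

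The exchange factors of HSP70 had 1 higher and none lower of 5, which was Grpel1, while without the offset 3 were higher, among them Hspbp1 at 0.77 (adjusted p = 0.00425). Bag3 had 0.17 (adjusted p = 0.469). Among 11 expressed J-domain genes, Dnajc7 and Dnajb6 were higher, by 0.51 and 0.48, and none was lower. Without the offset 2 were higher and 3 lower, and Dnajb6 had 0.19 (adjusted p = 0.196). Of the other HSP70 and HSP110 genes, 1 of 4 was lower, which was Hspa5, the HSP70 of the endoplasmic reticulum, at -0.66 ± 0.174 (adjusted p = 0.0339). Without the offset 3 of the 4 were lower, with Hspa5 at -1.10, Hspa4 at -0.49 (adjusted p = 0.0174) and the mitochondrial HSP70 Hspa9 at -0.46 (0.0241). Both other HSP90 genes missed the threshold, with Trap1 at -0.26 (adjusted p = 0.0951) and Hsp90b1 at 0.29 (0.298). Without the offset Trap1 passed, at -0.33 (adjusted p = 0.0381), and Hsp90b1 had -0.07. None of the 10 small heat shock proteins passed the expression limit.

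Chaperones of the endoplasmic reticulum had 1 higher and 3 lower of 15, with a median of -0.27, against 3 and 5 and a median of -0.45 without the offset. The disulfide isomerase Pdia4 changed by -1.001 ± 0.167 (adjusted p = 0.0104), Xbp1, a transcription factor of the unfolded protein response, by -0.85 ± 0.135 (0.00907) and Hspa5 as above, while the secreted stress factor Manf changed by 1.10 ± 0.216 (0.0157). Of the listed regulators of HSF1 and its family, Ubb, which encodes ubiquitin, had -0.50 (0.0463), and 0.04 without the offset (0.857), and Hsbp1, which binds HSF1, had -0.25 (0.0845). Without the offset the change of Hsbp1 had the other sign and passed, at 0.61 (adjusted p = 0.00472). Heat-inducible targets of HSF1 other than the members had 3 higher and 3 lower of 14, with a median of 0.15. Fkbp4, Tcp1 and Ahsa1 were higher, at 0.60, 0.47 and 0.55, and those lower included Ubb and Stip1. Tcp1 without the offset had 0.07 (0.591).

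Genes known to be induced by tissue dissociation had 2 higher and 10 lower of 27, with a median of -0.77 (1 and 13 without the offset). Dusp1, a phosphatase of MAP kinases, changed by -1.80 ± 0.245 (adjusted p = 0.00637), Socs3, a brake on cytokine signalling, by -1.51 ± 0.168 (0.00434), Nfkbiz by -1.18 and the stress factor Atf3 by -1.15. The genes that rose were Nfkbia, at 0.59, and Cebpd, at 0.77, named after their values were seen; Cebpd did not pass without the offset. From APC-WT tumor 1 to 2, where Hspa1a and Hspa1b rose, 4 of these genes were higher and 16 lower, and from APC-KO tumor 1 to 2, where they fell, 15 were higher and 6 lower. Of all expressed genes, 19.6% were higher and 28.1% lower in the first of these comparisons, and 19.2% and 15.7% in the other. The part of dissociation in the members' levels was not tested.

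**Figure D4:**
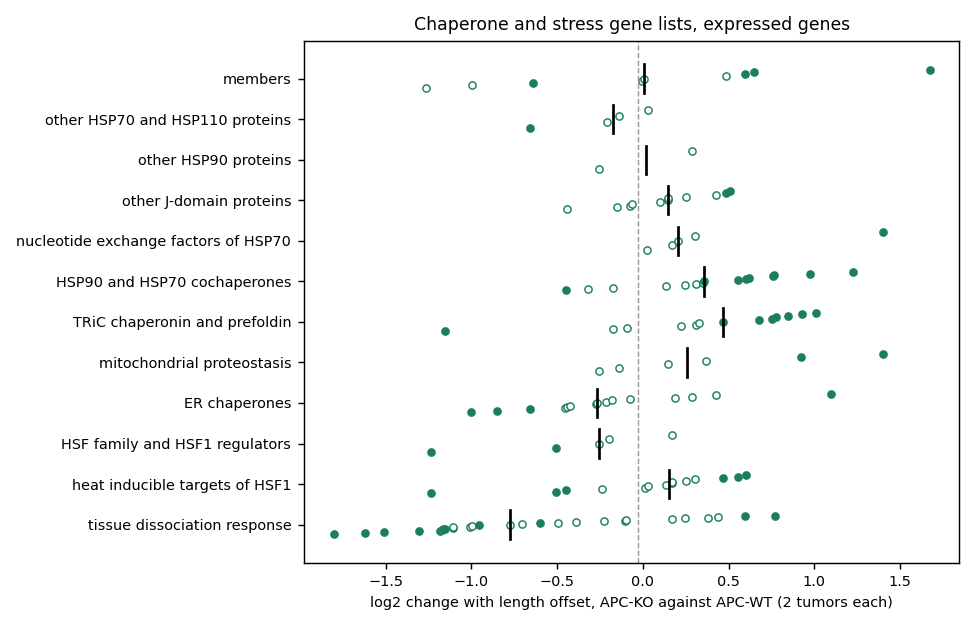
Log2 change with the length offset between APC-KO and APC-WT tumors (2 tumors each) for every expressed gene of each list; filled points passed an adjusted p of 0.05, black bars are list medians and the dashed line is the median of all expressed genes, -0.03. The cochaperone and TRiC lists have more filled points on the right and the dissociation list on the left; some genes stand in more than one list.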

How the data were processed

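Whole-number counts per Ensembl gene ID in 24 libraries were deposited by the authors, unnormalized. The submitters' processing notes name bcl2fastq 2.20.0, HISAT2, StringTie and the build mm9; roles, settings, strand and annotation are not given in the sources used here. Counts made by StringTie can derive from coverage, so counting error is approximate. Symbols, lengths and coordinates came from GENCODE M21 (GRCm38) by gene ID, and promoters from RefSeq (GRCm38.p6).

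Counts were summed per tumor and tested by edgeR 4.0.16 (quasi-likelihood, R 4.3.3) over 3938 expressed genes, with TMM, a loess offset (span 0.5) on the length of the longest transcript and Benjamini-Hochberg adjustment at 0.05. The background came from 1974 receptor genes, and 12 satellite-like loci, sharing at least 0.4 of their 15-base stretches with Gm10800, were left out. Single tumors were compared over the 24 libraries with a mean per tumor. Adjusted p-values are edgeR's unless another tool is named. Alternatives used limma 3.58.1, DESeq2 1.42.0, other offsets, scalings and gene sets, and each tumor or replicate number left out. The genotype test was also run on simulated tumor sums that gave all genes the same spread, so its result there need not hold for these data. Tables and plots used Python 3.11.15, pandas 2.3.3, numpy 2.4.6 and matplotlib 3.10.9. Replicates of a tumor differed by more than sampling noise (chi-square per degree of freedom from 6.45 to 473 over pairs). They were summed for the genotype test and kept apart in the comparisons of single tumors.

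The members and lists were chosen with earlier results of these data known. All 10 members were named, and of each list up to 4 expressed genes with the smallest p for genotype, with the sort markers, Csf1r and copies of members. Genes named outside this rule are marked. The values of 1 gene that the rule names are not reported here.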

Additional observations from a re-analysis of the deposited data

How the results depend on the processing

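The genotype comparison was the part most dependent on processing. With TMM over all 53705 genes, 0 genes and 0 members were called by edgeR (17844 genes at an unadjusted p under 0.05; lowest adjusted p 0.0917; DESeq2 on expressed genes called 2247), and the median expressed gene moved to -4.01. There Hsp90aa1, Hsp90ab1, Dnajb1, Hspe1, Hsph1 and Hsf1 had log2 changes of -2.70, -3.58, -4.25, -2.36, -3.92 and -3.40. In the same scaling all 10 members were called lower in all 4 pairs. How many expressed genes did so was not counted, while single pairs had 11551 to 12795 of 45451 genes lower. In that scaling the WT tumors gave -1.20, -1.04 and -0.87 for Hsp90aa1, Dnajb1 and Hsph1, and the KO tumors -0.073 for Hspe1. With all genes and library sizes from expressed genes, 33252 genes (31775 higher) and 7 members were called, and 32115 and 7 with every gene counted. At 20 times the background, 897 of 2070 genes and 2 of 7 members were called. Leaving out a tumor gave 539 to 1927 genes and 1 to 5 members, with 1 member without APC-WT tumor 2 (1927 genes), APC-KO tumor 1 (616 genes) or APC-KO tumor 2 (539 genes). A lone tumor was assumed to vary like the others.

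Plain totals of expressed genes, chosen after seeing the data, shifted the median gene to 0.15 and split calls into 1268 higher and 675 lower, against 980 and 960; limma-voom gave 1406 and 611 with a median of 0.21. Hspa8 then lost its call (adjusted p = 0.0663 and 0.0931), as it did at 20 times the background (0.178) and with background subtracted (0.138), keeping its sign. Hsp90aa1 passed in every alternative but TMM over all genes.

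Uncalled changes near 0 changed sign. Dnajb1 had -0.30 without the offset and in both fits over all genes with library sizes from expressed genes, -0.049 with GC content, -0.00030 with DESeq2 and -0.12 with plain totals and no offset, and -0.14 to 0.13 with a tumor left out. Hspd1 had 0.12 with the principal isoform, 0.022 with GC content, 0.23 with limma-voom, 0.27 at 20 times the background, 0.077 with background subtracted, 0.18 and 0.053 with plain totals, with the offset and without it, 0.13 with copies summed, and -0.16 to 0.13 with a tumor left out. Hsph1 had -0.033 without the offset, also over all genes with library sizes from expressed genes, and 0.13 with plain totals and no offset. With a tumor left out Hspa1a ran from -1.68 to 0.37 and Hspa1b from -2.11 to 0.27. From KO tumor 1 to 2 Hspe1 had -0.062 without the offset and -0.068 to 0.083 with a replicate number left out. The causes were not tested.

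Replicate numbers did not meet the rule for pairing, a correlation over 0.1 in every pair: deviations of same-numbered libraries correlated from -0.50 to 0.78, with 9 of 36 pairs over 0.1. Between the APC-WT tumors the correlations were 0.65, 0.66, 0.78 and 0.68 for numbers 1, 2, 5 and 6, and -0.49 and -0.24 for 3 and 4. With a replicate block, 8 of 9 members were called between the WT tumors, against 1828 of 3938 expressed genes. Between the KO tumors 7 members were called (Dnajb1 at 0.20, adjusted p = 0.0459), against 1320 of 3938 expressed genes. In all pairs 4 members were called, and the share of expressed genes was not counted there.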
